A study of Mus musculus with 24 samples.

Results

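Rif1 and the 6 genes of the shelterin complex (Terf1, Terf2, Terf2ip, Tinf2, Pot1a and Acd) were followed through 4 kinds of RNA in mouse embryonic stem cells. The 7 genes are given by name, a rule that uses no measured value but was set with earlier results of these data known, and all 7 were found among the 29759 genes of the deposited tables. The cells were of the E14 line, a single line, grown without serum on gelatin-coated plates. Epiblast-like cells (EpiLC) had been grown for 3 days in medium holding 20 ng/ml of activin A and 12 ng/ml of bFGF, a step that moves cells toward the state of the early post-implantation epiblast. Naive embryonic stem cells (nESC), from which the EpiLC were made, were kept in LIF together with the MEK inhibitor PD0325901 and the GSK3 inhibitor CHIR99021. From EpiLC and from nESC, RNA of the chromatin, the nucleoplasm, the cytoplasm and the whole cell (total) was depleted of ribosomal RNA and sequenced in 3 libraries each, in all 8 groups and 24 libraries. The labels do not say that the 3 libraries of a group came from separate cultures, so p-values measure the spread between these libraries, which may be technical.

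Shelterin coats the TTAGGG repeats at chromosome ends and keeps them from being treated as broken DNA. Terf1 and Terf2 encode the proteins that bind the double-stranded repeats, Terf2ip (RAP1) is held by Terf2, Tinf2 (TIN2) bridges the double-strand binders to Acd (TPP1), and Acd carries Pot1a, which binds the single-stranded overhang. Rif1 was named in budding yeast as a partner of Rap1 at telomeres, whereas in mammalian cells it is known for setting replication timing with protein phosphatase 1, for acting with 53BP1 at double-strand breaks, and in mouse embryonic stem cells for restraining Zscan4 and telomere recombination.

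Terf1 and Terf2 are related proteins whose carboxy-terminal Myb-type domain carries the telobox, the stretch that reads the telomere repeat. The coding bases around it are shown because these relatives differed, on the deposited scale, in how their messages were spread over the fractions. The 2 stretches of 81 bases come from GENCODE M21 transcripts of the genes on chromosomes 1 and 8, run 5′ to 3′ on the message strand, and have the 7 codons at the core of the telobox in capitals.
Terf1: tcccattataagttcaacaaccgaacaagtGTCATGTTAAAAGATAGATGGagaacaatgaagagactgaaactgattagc
Terf2: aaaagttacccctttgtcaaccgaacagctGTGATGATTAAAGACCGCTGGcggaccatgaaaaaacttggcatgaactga
The 2 stretches were identical at 47 of 81 bases (58.0%).

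The genes differ in size and structure (GRCm38, annotation GENCODE M21). Rif1 (ENSMUSG00000036202, chr2:52072832-52122383, plus strand) spans 49.6 kb with 36 exons in its longest coding transcript. Terf1 (ENSMUSG00000025925, chr1:15805646-15844052, plus strand) spans 38.4 kb and Terf2 (ENSMUSG00000031921, chr8:107069400-107096547, minus strand) spans 27.1 kb, each with 10 exons. Terf2ip (ENSMUSG00000033430, chr8:112011398-112020528, plus strand) has 3 exons over 9.13 kb. Tinf2 (ENSMUSG00000007589, chr14:55674689-55681820, minus strand) and Acd (ENSMUSG00000038000, chr8:105695860-105701102, minus strand) are compact, at 7.13 kb and 5.24 kb, and Pot1a (ENSMUSG00000029676, chr6:25743737-25809246, minus strand) is the longest at 65.5 kb. Exons cover 69.2% of the span of Tinf2, 69.1% of Acd and 54.3% of Terf2ip, against 21.2% of Rif1, 16.9% of Terf2, 13.2% of Pot1a and 12.0% of Terf1. The median span of the 11680 annotated genes tested in both tables was 21.3 kb.

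Values are FPKM, which divides fragments by transcript length and by sequencing depth, so that levels of different genes can be set side by side. All 7 genes passed the filter of a mean of at least 1 FPKM in both tables. The fit was limma on log2(FPKM + 0.5), over all genes and all 4 kinds of library of a table, and a gene was called when its Benjamini-Hochberg adjusted p was under 0.05 and its fold at least 2. Fold changes are on that log2 scale, which understates the change of low genes. The steps between low values put about 24.2 to 93.6 fragments behind 1 FPKM in a 2 kb transcript. The thinnest value of the 7 genes, that of Terf2ip in an nESC chromatin library, rested on about 101 fragments, and the lowest of Rif1 on about 789. These numbers were computed with all annotated exonic bases of a gene and may be too high. Terf2ip has 4958 such bases, and its longest coding transcript has 3560.

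The fractions carried the RNAs by which they are usually checked. Of 6 nuclear noncoding RNAs, 6 were called higher in chromatin than in cytoplasm in EpiLC and 5 in nESC, and all 8 messages of a cytoplasmic list were called lower in both states. The summed FPKM of 8 naive pluripotency genes in total RNA was 35.6 to 38.8 in EpiLC and 904 to 927 in nESC, and that of 5 formative epiblast genes was 1089 to 1124 in EpiLC and 30.7 to 32.1 in nESC. The summed level of 7 fibroblast or feeder genes in total RNA was 12.8 to 15.1 in EpiLC and 0.425 to 9.52 in nESC. That of 7 primitive endoderm genes was at most 2.78 in EpiLC and 1.70 in nESC. The lowest Pearson's r between libraries of a group across genes was 0.985, in EpiLC chromatin, where genes are not independent replicates. EpiLC chromatin replicate 3 stood apart in mt-Co1, a mitochondrial message, with 6077 FPKM against 1894 and 1133 in replicates 1 and 2. EpiLC cytoplasm replicate 3 had the highest summed nuclear noncoding RNA of its group, at 1103 FPKM against 802 and 857. In nESC nucleoplasm replicate 3, Malat1 was listed at 0 while replicates 1 and 2 had 3810 and 3590 FPKM, and no value of the 7 genes was listed at 0.

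Rif1 had by far the most uneven distribution of the 7 genes. Its message was the most abundant of the 7 in chromatin, nucleoplasm and total RNA of both states and the sixth of 7 in cytoplasm. In EpiLC, Rif1 stood at 223, 124 and 116 FPKM in chromatin and at 139, 152 and 165 FPKM in nucleoplasm, against 8.11, 10.1 and 11.0 FPKM in cytoplasm. The nESC values were 239, 282 and 293 FPKM in chromatin and 131, 124 and 142 FPKM in nucleoplasm, against 6.21, 8.38 and 8.92 FPKM in cytoplasm. No nuclear library of either state came near a cytoplasmic one, and EpiLC chromatin replicate 1 lay far above replicates 2 and 3. Total RNA held 98.2, 85.1 and 94.7 FPKM of Rif1 in EpiLC and 136, 147 and 138 FPKM in nESC.

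Chromatin exceeded cytoplasm in Rif1 by a log2 fold change of 3.86 ± 0.21 in EpiLC (SE, adjusted p = 2.54e-09) and of 5.04 ± 0.12 in nESC (adjusted p = 6.77e-13). On the linear scale of the fit these are 14.6-fold and 32.8-fold. Rif1 thereby lay at the 98.6th percentile of all genes tested in EpiLC and at the 99.3rd in nESC. The median log2 fold change of the 6 nuclear noncoding RNAs was 3.20 in EpiLC and 4.36 in nESC. Malat1 (4.40) and Kcnq1ot1 (4.08) stood above Rif1 in EpiLC. The highest of the 6 in nESC was Malat1 at 4.81 ± 2.44 (adjusted p = 0.0809), the one not called. That error is too wide to rank Malat1 against Rif1. The nESC fit shares one spread over all fractions, and Malat1 was listed at 0 in nESC nucleoplasm replicate 3. Meg3, the next highest in nESC, stood below Rif1 at 4.67 ± 0.09. Nucleoplasm exceeded cytoplasm in Rif1 by 3.91 ± 0.21 in EpiLC and by 4.01 ± 0.12 in nESC. Cytoplasm lay below total RNA by a log2 fold change of -3.19 ± 0.21 in EpiLC and -4.09 ± 0.12 in nESC. Rif1 kept its direction and its call in these 3 comparisons of both states under every alternative run, but correcting the libraries for the exonic length and GC content of genes reduced chromatin over cytoplasm to 1.61 in EpiLC and 2.56 in nESC.

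**Figure D1:**
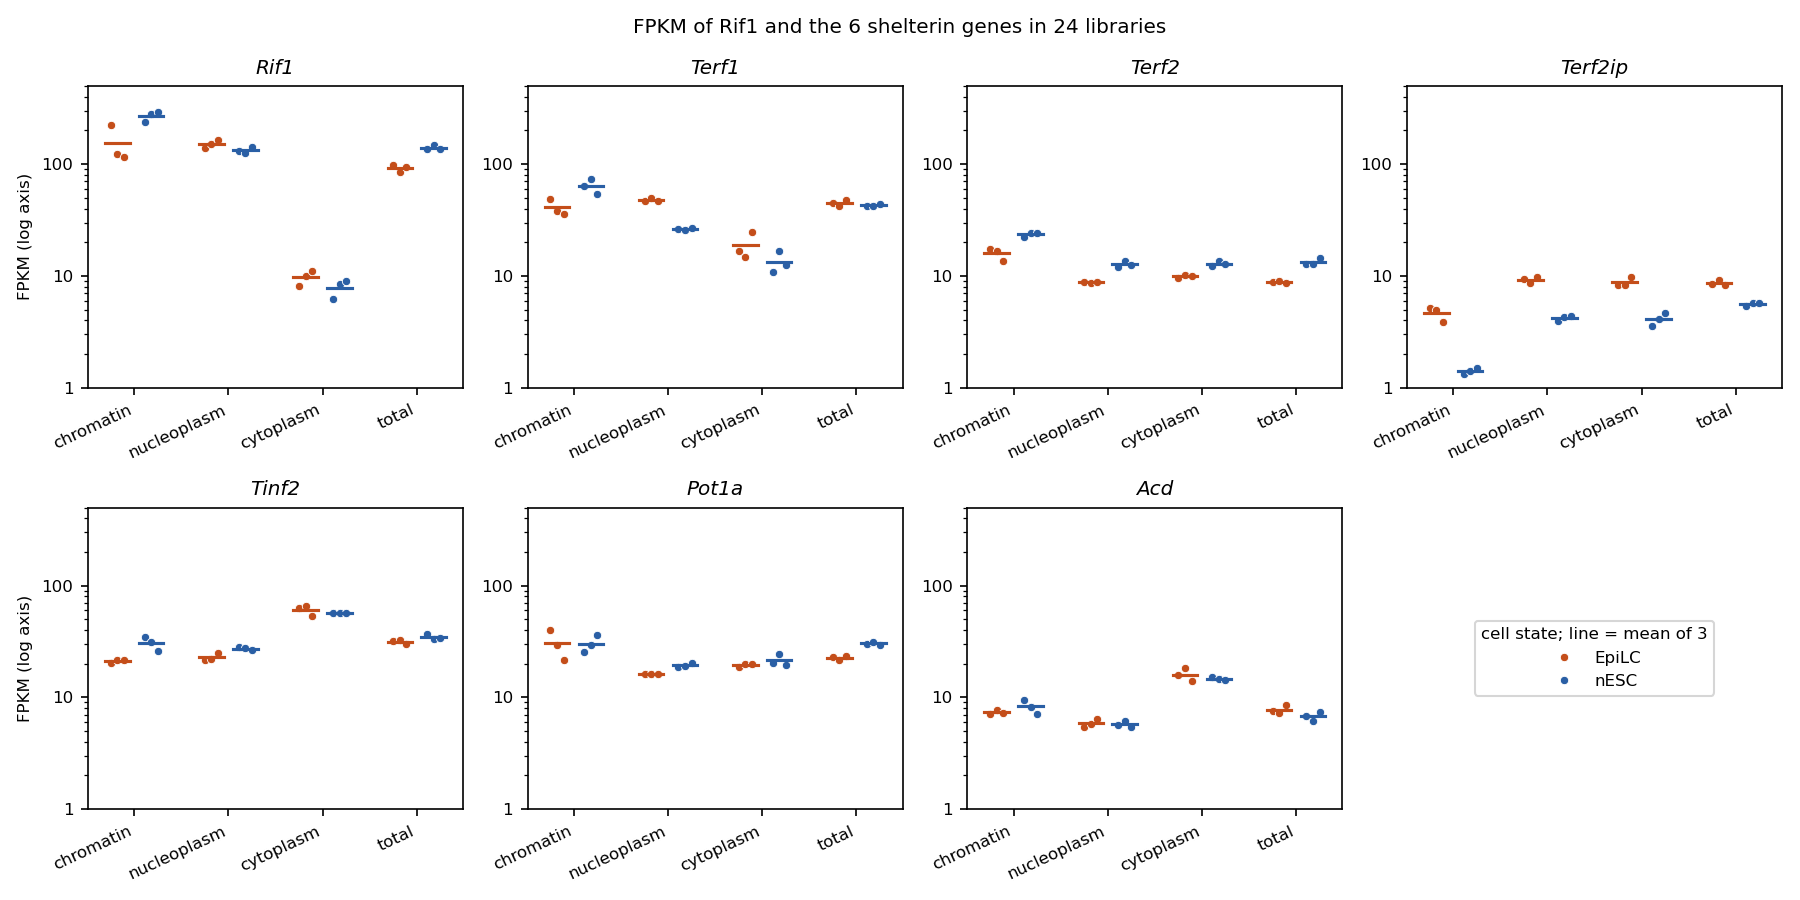
FPKM (log axis) of Rif1 and the 6 shelterin genes in chromatin, nucleoplasm, cytoplasm and total RNA, with EpiLC in orange at the left of nESC in blue. Points are the 3 libraries of a group and lines their means. The Rif1 points sit between 116 and 293 FPKM in both nuclear fractions and between 6.21 and 11.0 FPKM in cytoplasm, while Tinf2 and Acd, as deposited, are highest in cytoplasm.

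Of the 7 genes, 4 were called in chromatin over cytoplasm in EpiLC, where 57.6% of all genes were called, and 3 in nESC, where 61.5% were. Rif1 and Terf1 were called higher in both states, against 29.1% of all genes called higher in EpiLC and 31.8% in nESC. Tinf2 and Acd in EpiLC, and Terf2ip in nESC, were called lower, against 28.4% of all genes in EpiLC and 29.7% in nESC. The number of calls among the 7 genes is thus near the background in both states. Their median log2 fold change was 0.58 in EpiLC and 0.47 in nESC, beside -0.00077 and 0.04 over all genes. In nucleoplasm over cytoplasm, 4 of the 7 genes were called in EpiLC and 3 in nESC, beside 39.2% and 39.9% of all genes. Libraries of chromatin and cytoplasm did not overlap in 82.7% of all genes in EpiLC and 85.9% in nESC. For nucleoplasm and cytoplasm the shares were 81.2% and 84.9%. A lack of overlap in the genes below is thus common in these data.

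Of the binders of double-stranded repeats, Terf1 was the second most abundant of the 7 messages in chromatin and total RNA of both states. In EpiLC, Terf1 stood at 48.6, 38.2 and 36.1 FPKM in chromatin, against 16.6, 14.7 and 24.9 FPKM in cytoplasm. In nESC it stood at 63.4, 73.3 and 53.6 FPKM in chromatin, against 10.9, 16.7 and 12.4 FPKM in cytoplasm. Chromatin lay above cytoplasm in every library of both states, and the highest EpiLC cytoplasm value was that of replicate 3, the library with the most nuclear noncoding RNA. The log2 fold change was 1.13 ± 0.17 in EpiLC (adjusted p = 3.52e-05) and 2.22 ± 0.14 in nESC (adjusted p = 4.20e-09). Without EpiLC chromatin and cytoplasm replicates 3 the EpiLC value was 1.44. The EpiLC call ended without EpiLC cytoplasm replicate 2 (0.98) and with libraries centred on their medians (0.93). With libraries corrected for exonic length and GC content, Terf1 stood at -0.80 in EpiLC and 0.03 in nESC and was called in neither.

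Terf1 was spread differently in nucleoplasm. It stood at 46.9, 49.7 and 46.4 FPKM in EpiLC nucleoplasm and at 26.2, 25.7 and 27.0 FPKM in nESC nucleoplasm, a narrow spread in each. In total RNA it stood at 45.1, 42.3 and 47.5 FPKM in EpiLC and at 42.2, 41.9 and 44.4 FPKM in nESC, which overlap. Nucleoplasm exceeded cytoplasm by a log2 fold change of 1.36 ± 0.17 in EpiLC (adjusted p = 1.00e-05), and the nESC value of 0.97 ± 0.14 fell short of the fold threshold. Cytoplasm fell below total RNA by 1.28 ± 0.17 on the log2 scale in EpiLC and by 1.67 ± 0.14 in nESC, both called. The correction for exonic length and GC content turned these signs, to -0.36 in EpiLC and -0.60 in nESC in nucleoplasm over cytoplasm and to 0.29 in EpiLC and 0.09 in nESC in cytoplasm over total RNA.

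Terf2, the relative of Terf1, was spread more evenly on the deposited scale. In EpiLC, Terf2 stood at 17.6, 16.7 and 13.5 FPKM in chromatin, against 9.63, 10.2 and 10.1 FPKM in cytoplasm. The nESC libraries had 22.4, 24.4 and 24.1 FPKM in chromatin, against 12.2, 13.7 and 12.8 FPKM in cytoplasm. The groups did not overlap in either state, as in 82.7% of all genes in EpiLC and 85.9% in nESC. The log2 fold changes of 0.64 ± 0.10 in EpiLC (adjusted p = 5.40e-05) and 0.85 ± 0.08 in nESC (adjusted p = 3.94e-07) were under 2-fold and were not called. Terf2 was called higher with the correction for exonic length and GC content, at 1.10 in EpiLC and 1.23 in nESC, under which Terf1 was not called, and with libraries scaled to one sum, at 2.41 in EpiLC and 2.76 in nESC. Nucleoplasm over cytoplasm was -0.18 ± 0.10 in EpiLC and -0.01 ± 0.08 in nESC.

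Terf2ip, whose protein Terf2 recruits, was the least abundant of the 7 in every nESC group and the only one with its lowest level in chromatin in both states. In EpiLC, Terf2ip stood at 5.11, 4.98 and 3.86 FPKM in chromatin, against 8.23, 8.32 and 9.85 FPKM in cytoplasm. In nESC it stood at 1.32, 1.41 and 1.49 FPKM in chromatin, against 3.59, 4.15 and 4.67 FPKM in cytoplasm. Every chromatin library lay below every cytoplasmic one of its state. The log2 fold change was -0.86 ± 0.12 in EpiLC (adjusted p = 1.88e-05), short of the fold threshold, and -1.28 ± 0.11 in nESC (adjusted p = 9.74e-08), called lower. With libraries centred on their medians, Terf2ip was called lower in both states. With libraries scaled to one sum the sign turned, to 0.85 in EpiLC and 0.35 in nESC. Nucleoplasm over cytoplasm was 0.07 ± 0.12 in EpiLC and 0.02 ± 0.11 in nESC, and was called higher with one sum, at 1.03 in EpiLC and 1.13 in nESC.

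Tinf2, the bridging subunit, was the most abundant of the 7 messages in cytoplasm of both states. In EpiLC, Tinf2 stood at 20.5, 21.6 and 21.5 FPKM in chromatin and at 21.6, 22.1 and 25.2 FPKM in nucleoplasm, against 62.6, 65.2 and 53.8 FPKM in cytoplasm. The nESC libraries had 34.7, 31.6 and 26.0 FPKM in chromatin and 28.0, 27.5 and 26.4 FPKM in nucleoplasm, against 57.1, 57.3 and 56.8 FPKM in cytoplasm. Both nuclear fractions lay below cytoplasm in every library. Chromatin over cytoplasm was -1.49 ± 0.09 in EpiLC (log2, adjusted p = 1.14e-08), called lower, and -0.89 ± 0.09 in nESC (adjusted p = 8.69e-07), not called. With libraries centred on their medians, Tinf2 was called lower in both states. The sign turned to 0.33 in EpiLC and 1.06 in nESC with libraries scaled to one sum. Nucleoplasm fell below cytoplasm by 1.38 ± 0.09 in EpiLC and by 1.05 ± 0.09 in nESC, and both calls ended with one sum, at -0.36 in EpiLC and 0.20 in nESC.

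Acd, which joins Tinf2 to Pot1a and brings telomerase to the end, had the same shape at a lower level. In EpiLC, Acd stood at 7.05, 7.78 and 7.18 FPKM in chromatin and at 5.47, 5.77 and 6.37 FPKM in nucleoplasm, against 15.8, 18.3 and 13.9 FPKM in cytoplasm. In nESC it stood at 9.54, 8.20 and 7.17 FPKM in chromatin and at 5.67, 6.13 and 5.43 FPKM in nucleoplasm, against 15.1, 14.5 and 14.4 FPKM in cytoplasm. No nuclear library of either state reached a cytoplasmic one. Chromatin over cytoplasm was -1.07 ± 0.11 in EpiLC (log2, adjusted p = 1.77e-06), called lower, and -0.80 ± 0.11 in nESC (adjusted p = 1.18e-05), not called. With libraries centred on their medians, Acd was called lower in both states. The sign turned to 0.69 in EpiLC and 1.09 in nESC with libraries scaled to one sum. The EpiLC call ended with the correction for exonic length and GC content (-0.41) and without EpiLC cytoplasm replicate 2 (-0.97). Nucleoplasm fell below cytoplasm by 1.37 ± 0.11 in EpiLC and by 1.28 ± 0.11 in nESC. Both calls ended with that correction, at -0.72 in EpiLC and -0.63 in nESC, and with one sum, at -0.38 in EpiLC and -0.08 in nESC. Cytoplasm exceeded total RNA by 0.99 ± 0.11 in EpiLC, short of the fold threshold, and by 1.06 ± 0.11 in nESC, which was called. That call ended with the correction (0.22), with one sum (0.14) and without nESC total replicate 2 (0.99).

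Tinf2 and Acd each overlap a neighbour on the other strand. The exons of Gmpr2 share 1540 bases with Tinf2, which is 31.2% of its exonic length, and those of Carmil2 share 1208 bases with Acd, 33.3% of its exonic length. Gm6793 shares 108 bases with Terf2ip (2.18%). The library kit keeps strand, but whether the counting used it is not given in the sources used here, so without that, reads of the shared stretches cannot be assigned. Gmpr2 averaged 12.9 FPKM in EpiLC cytoplasm and 11.4 FPKM in nESC cytoplasm, well under Tinf2, and Carmil2 averaged 1.13 and 0.542 FPKM there. In chromatin, Gmpr2 averaged 5.61 FPKM in EpiLC and 6.19 FPKM in nESC. Carmil2 averaged 1.98 and 2.41 FPKM in chromatin, where Acd averaged 7.34 and 8.30 FPKM. Gm6793 averaged 6.47 FPKM in EpiLC chromatin and 5.28 FPKM in nESC chromatin, above Terf2ip in both. It averaged 19.2 and 5.33 FPKM in nucleoplasm, also above Terf2ip, and 5.69 and 2.93 FPKM in cytoplasm, below it. What these neighbours add to the values of the 7 genes was not tested.

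Pot1a, one of a pair of mouse genes for the single-strand binder, stayed within 2-fold in all 4 comparisons of fractions on the deposited scale and has the longest gene body of the 7. In EpiLC, Pot1a stood at 40.2, 29.2 and 21.7 FPKM in chromatin, against 18.7, 20.0 and 19.8 FPKM in cytoplasm. In nESC it stood at 25.3, 29.5 and 36.0 FPKM in chromatin, against 20.5, 24.6 and 19.6 FPKM in cytoplasm. As in most genes the groups did not overlap, but the chromatin libraries were widely spread in both states. Chromatin over cytoplasm was 0.58 ± 0.16 in EpiLC (log2, adjusted p = 0.00495) and 0.47 ± 0.12 in nESC (adjusted p = 0.00216), neither called. Corrected for exonic length and GC content, the values were -0.86 in EpiLC and -1.10 in nESC, the second of which was called lower. That correction also gave called values in nucleoplasm over cytoplasm, of -1.54 in EpiLC and -1.35 in nESC. With one sum, chromatin over cytoplasm was called higher, at 2.38 in EpiLC and 2.40 in nESC, as was chromatin over nucleoplasm, at 1.64 and 1.32, while cytoplasm over total RNA was called lower, at -1.18 and -1.43.

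**Figure D2:**
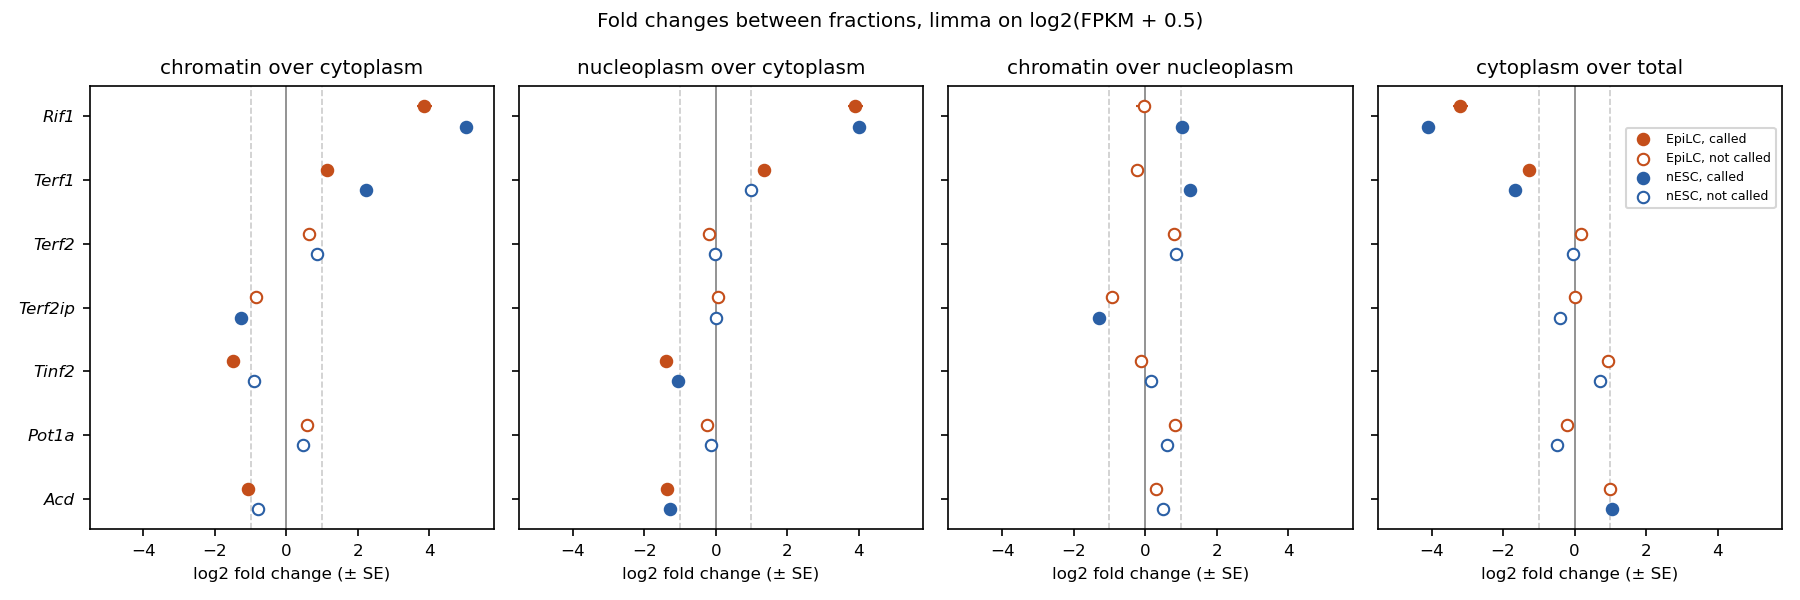
Log2 fold changes (x axis, ± SE of the fit) of the 7 genes (rows) in 4 comparisons of fractions, with EpiLC in orange above nESC in blue; filled points were called and dashed lines mark 2-fold. Rif1 stands alone at 3.86 and 5.04 in chromatin over cytoplasm, Tinf2 and Acd lie left of 0 in both nuclear fractions over cytoplasm on the deposited scale, and no EpiLC point is filled in chromatin over nucleoplasm.

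In cytoplasm over total RNA, 2 of the 7 genes were called in EpiLC, where 30.3% of all genes were, and 3 in nESC, where 35.4% were. Rif1 and Terf1 were lower in cytoplasm in both states and Acd was higher in nESC. Tinf2 stood at 0.93 ± 0.09 in EpiLC and 0.70 ± 0.09 in nESC, short of the threshold. Without EpiLC cytoplasm replicate 3, both Tinf2 (1.01) and Acd (1.09) were called higher in EpiLC, so that 4 of the 7 were called. Over all genes, the fits that left out 1 library of this EpiLC comparison called 3584 to 4412 of 12834.

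Calls between the nuclear fractions differed between the states, which by itself is no test of a difference. In chromatin over nucleoplasm, none of the 7 genes was called in EpiLC, where 32.7% of all genes were called, and 3 were in nESC, where 34.7% were; limma gave an unadjusted p under 0.05 for 9508 of 12834 genes in the EpiLC comparison. Rif1 was at -0.04 ± 0.21 in EpiLC (adjusted p = 0.859) and at 1.03 ± 0.12 in nESC (adjusted p = 4.47e-06). Terf1 was at -0.23 ± 0.17 in EpiLC (adjusted p = 0.237) and at 1.25 ± 0.14 in nESC (adjusted p = 3.06e-06). The nESC call of Rif1 sat at the threshold. It ended with the correction for exonic length and GC content (0.33), without nESC chromatin replicate 2 (1.00) or 3 (0.97), without nESC nucleoplasm replicate 2 (0.98) and with median centring (0.99). The nESC call of Terf1 ended with that correction (0.63). Terf2ip was at -0.92 ± 0.12 in EpiLC and at -1.30 ± 0.11 in nESC, where it was called lower and lost the call with one sum (-0.78).

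That difference between the states was tested as an interaction over the libraries of both tables, each centred on its median, so that a value is the fraction difference in EpiLC minus that in nESC. For chromatin over cytoplasm, 1 of the 7 genes was called, beside 9.65% of 11704 genes. Rif1 was lower in EpiLC, at -1.08 ± 0.24 on the log2 scale (adjusted p = 0.00149), and Terf1, at -0.99 ± 0.22 (adjusted p = 0.00130), fell just short of the fold threshold, which it passed with one sum (-1.20). Terf2ip at 0.52 ± 0.14 (adjusted p = 0.00768) and Tinf2 at -0.50 ± 0.13 (adjusted p = 0.00642) were under 2-fold. For nucleoplasm over cytoplasm, limma called 0 of the 7, beside 2.55% of all genes, with Rif1 at -0.04 ± 0.24 and Terf1 at 0.45 ± 0.22 (adjusted p = 0.152). The interaction for chromatin over nucleoplasm was added after these values were seen. It called 2 of the 7, beside 8.11% of all genes, with Rif1 at -1.04 ± 0.24 (adjusted p = 0.00199) and Terf1 at -1.44 ± 0.22 (adjusted p = 3.73e-05).

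The Rif1 calls depended on single libraries. For chromatin over cytoplasm, the value was -0.95 without EpiLC chromatin replicate 2, -0.92 without EpiLC chromatin replicate 3, and -0.94 without nESC cytoplasm replicate 1, none of which was called. Without EpiLC chromatin replicate 1 it was -1.36. The adjusted p stayed at 0.00586 or lower in all 12 such fits. With the correction for exonic length and GC content this Rif1 value was -0.91, not called. For chromatin over nucleoplasm, the Rif1 call ended without EpiLC chromatin replicate 2 (-0.92) or 3 (-0.88), without EpiLC nucleoplasm replicate 3 (-0.99), without nESC chromatin replicate 3 (-0.98) and without nESC nucleoplasm replicate 2 (-0.999). It also ended with a mean of at least 5 FPKM (-0.89), the length and GC correction (-0.74) and one sum (-0.97). The Terf1 interaction for chromatin over nucleoplasm ran from -1.56 to -1.33 in its 12 fits and was called in each. The nuclear noncoding RNAs differed too, with a median interaction of -0.73 in chromatin over cytoplasm, and 3 of 6 were called lower. Their part in the Rif1 value was not tested. Without EpiLC chromatin and cytoplasm replicates 3 the Rif1 value for chromatin over cytoplasm was -0.84, not called.

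Levels of the states are set side by side and were not tested, since each table had a normalization of its own. In these bulk samples, fewer cells of a type and less RNA per cell cannot be told apart. Terf2ip was higher in EpiLC in all 4 kinds of RNA, without overlap of the libraries. The share of all genes without such overlap between the states was not counted, so the lack of overlap is not read as a trait of Terf2ip. Between fractions within a state, 72.2% to 85.9% of all genes did not overlap. The mean of Terf2ip was 4.65 ± 0.69 FPKM in EpiLC chromatin and 1.40 ± 0.08 in nESC chromatin (SD, n = 3 each), a ratio of 3.31. The ratio was 2.20 in nucleoplasm, 2.13 in cytoplasm and 1.54 in total RNA. Terf2ip in chromatin, nucleoplasm and cytoplasm gave the only 3 of 28 pairs of a gene and a kind of RNA that differed at least 2-fold between the states as deposited, and with median centring the cytoplasm value dropped below that. Among all genes, 15.4% to 23.8% differed at least 2-fold, depending on the kind of RNA.

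Terf2 lay lower in EpiLC in all 4 kinds of RNA, also without overlap, which for the same reason is not read as a trait of Terf2. It averaged 8.82 ± 0.20 FPKM in EpiLC total RNA and 13.4 ± 0.86 in nESC total RNA (SD, n = 3 each). Terf2ip and Terf2, whose proteins bind each other, thus stood in opposite directions. In total RNA the 2 messages were at 8.64 and 8.82 FPKM in EpiLC, with overlapping libraries, and at 5.60 and 13.4 FPKM in nESC. Rif1 averaged 92.7 ± 6.8 FPKM in EpiLC total RNA and 140 ± 6.1 in nESC total RNA, and 154 ± 59 in EpiLC chromatin and 271 ± 29 in nESC chromatin (SD, n = 3 each). The Rif1 libraries overlapped between the states in nucleoplasm and cytoplasm. Acd overlapped between the states in all 4 kinds of RNA.

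The makeup of the shelterin messages within a library does not depend on how that library was scaled. It does depend on corrections that differ between genes, and no shares were computed with the correction for exonic length and GC content. With that correction Terf1 was called in chromatin over cytoplasm in neither state, as given above. Tinf2 gave 45.3% ± 4.0 of the summed FPKM of the 6 genes in EpiLC cytoplasm and 46.2% ± 2.2 in nESC cytoplasm (SD, n = 3 each). In chromatin its share was 17.9% ± 3.0 in EpiLC and 19.5% ± 2.4 in nESC. Terf1 ran the other way, with 34.0% ± 1.5 in EpiLC chromatin and 40.1% ± 3.7 in nESC chromatin, against 14.1% ± 4.3 in EpiLC cytoplasm and 10.7% ± 1.9 in nESC cytoplasm. Acd took 6.18% of the sum in EpiLC chromatin and 5.26% in nESC chromatin, against 12.0% and 11.9% in cytoplasm. The states differed most in nucleoplasm, where Terf1 took 43.1% ± 1.8 in EpiLC and 27.5% ± 0.73 in nESC. Terf2ip took 3.86% ± 0.30 in EpiLC chromatin and 0.893% ± 0.094 in nESC chromatin. Tinf2 had the largest share in cytoplasm of both states and Terf1 in chromatin of both.

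**Figure D3:**
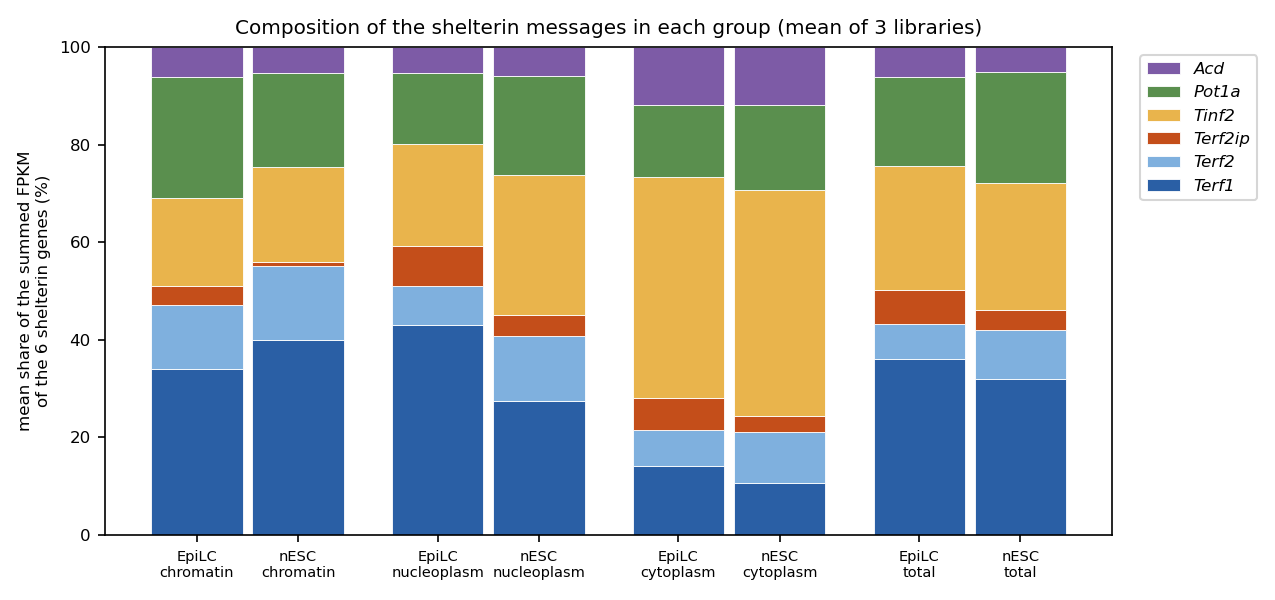
Mean share (percent, 3 libraries a group) of each of the 6 shelterin genes in their summed FPKM, with EpiLC left of nESC for chromatin, nucleoplasm, cytoplasm and total RNA. Tinf2 fills 45.3% and 46.2% of the cytoplasm bars, and Terf1 fills 34.0% and 40.1% of the chromatin bars.

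How alike the genes were over the 8 groups was measured as the root mean square difference of their log2 profiles, each centred within its state. The closest pair was Tinf2 and Acd at 0.19, followed by Terf2 and Pot1a at 0.25. The farthest pair was Rif1 and Tinf2 at 2.25, and the nearest of the 6 to Rif1 was Terf1 at 1.15. Terf1 was at 0.63 from Terf2. Among 10605 genes searched, those nearest to Rif1 were Zfp292 at 0.18, Zfp936 and Zfp990 at 0.20, Dmxl1 at 0.20 and Esf1 at 0.21, while the median gene was at 1.88. Those nearest to Tinf2 were Slc25a11 and Bckdk at 0.05, beside a median of 0.69, and those nearest to Terf1 were Polr3f at 0.15 and Cstf3 and Tdrd3 at 0.16, beside a median of 0.89.

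Promoters of Tinf2 and Acd are shown because their messages were the closest pair. RefSeq (GRCm38.p6) has a promoter for 5 of the 7 genes, each with 250 bases before and 50 after the start that RefSeq gives; Rif1 and Terf1 are not among them. That start of Acd lies upstream of the GENCODE gene given above, so the Acd window holds no base of that gene. Searched on both strands were CCAAT, the GC box GGGCGG, the ETS core CCGGAAG and TGACGT, a part of cyclic AMP response elements, and matches are in capitals. The Tinf2 window is chr14:55681768-55682067 and the Acd window chr8:105701179-105701478, both on the minus strand.
Tinf2: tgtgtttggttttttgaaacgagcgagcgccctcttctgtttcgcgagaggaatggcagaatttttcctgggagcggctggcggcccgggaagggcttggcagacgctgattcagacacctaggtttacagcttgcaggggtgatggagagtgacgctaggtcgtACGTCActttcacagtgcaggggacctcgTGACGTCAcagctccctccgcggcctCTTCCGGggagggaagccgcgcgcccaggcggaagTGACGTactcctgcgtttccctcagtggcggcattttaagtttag
Acd: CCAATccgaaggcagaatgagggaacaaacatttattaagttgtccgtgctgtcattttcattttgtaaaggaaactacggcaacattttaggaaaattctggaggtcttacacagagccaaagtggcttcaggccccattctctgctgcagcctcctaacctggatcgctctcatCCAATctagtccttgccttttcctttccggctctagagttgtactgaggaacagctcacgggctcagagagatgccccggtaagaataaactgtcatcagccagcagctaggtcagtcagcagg
Tinf2 had 4 matches to TGACGT, of which a palindrome gives 2 that overlap, and 1 match to CCGGAAG, whereas Acd had 2 matches to CCAAT and none to the others. Of 32851 promoters of this length, 37.4% hold CCAAT, 35.7% GGGCGG, 8.86% CCGGAAG and 7.51% TGACGT. Tinf2 had 24 CG dinucleotides and Acd 7, beside a median of 7.

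Other genes of telomere upkeep were called in both directions. Of 28 tested telomere maintenance genes, 11 were called higher and 5 lower in chromatin over cytoplasm in EpiLC and 12 higher and 5 lower in nESC, with medians of 0.35 and 0.75 on the log2 scale. Of all genes, 29.1% were called higher and 28.4% lower in EpiLC, and 31.8% higher and 29.7% lower in nESC. Atrx, which deposits histone H3.3 at telomeres, stood at 3.75 ± 0.26 in EpiLC and 5.37 ± 0.14 in nESC. Among the 28 tested telomere maintenance genes, these values were the nearest in size to those of Rif1. Blm, a helicase that acts on telomere replication, stood at 2.66 ± 0.17 in EpiLC and 2.38 ± 0.13 in nESC, and Tnks, a poly-ADP-ribose polymerase that acts on the human counterpart of Terf1, at 2.14 ± 0.15 and 2.65 ± 0.17. Called lower were Gar1 at -2.94 ± 0.11 in EpiLC and -2.86 ± 0.18 in nESC, and Nhp2 at -2.68 ± 0.14 and -2.52 ± 0.08, both small proteins of the telomerase particle. Ten1, a subunit of the CST complex at the overhang, stood at -2.08 ± 0.10 in EpiLC and -2.61 ± 0.10 in nESC.

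Genes of end protection and break repair were called in both directions. Of 11 tested, 4 were called higher and 2 lower in EpiLC and 6 higher and 1 lower in nESC, with medians of 0.96 and 1.22. These counts stand beside the same 29.1% higher and 28.4% lower of all genes in EpiLC and 31.8% and 29.7% in nESC. Brca1, which acts against 53BP1 and Rif1 at breaks, stood at 3.16 ± 0.17 in EpiLC and 3.68 ± 0.20 in nESC, and the kinase gene Atm at 2.92 ± 0.16 and 3.20 ± 0.15. Rad50, of the break sensor complex, was at 2.87 ± 0.13 in EpiLC, and Rbbp8, an end resection factor, at 2.47 ± 0.12 in nESC. Shld1, a shieldin subunit that acts after Rif1, was lower at -1.95 ± 0.15 in EpiLC and -2.40 ± 0.08 in nESC, and Mad2l2, another shieldin subunit, was at -1.33 ± 0.15 in EpiLC.

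Genes of replication origins were likewise called in both directions. Of 20 tested, 3 were called higher and 10 lower in EpiLC and 4 higher and 9 lower in nESC, with medians of -0.95 and -0.61, again beside 29.1% higher and 28.4% lower of all genes in EpiLC and 31.8% and 29.7% in nESC. Ppp1ca and Ppp1cc encode the catalytic subunits of the phosphatase that Rif1 brings to origins. Ppp1ca stood at -3.69 ± 0.12 in EpiLC and -3.41 ± 0.08 in nESC, and Ppp1cc at -2.19 ± 0.08 and -1.32 ± 0.07, opposite in sign to Rif1 in both states on the deposited scale. Mcm5, of the replicative helicase, stood at -1.88 ± 0.09 in EpiLC and -1.49 ± 0.07 in nESC. Higher in chromatin were Orc3 at 1.67 ± 0.14 in EpiLC and 2.42 ± 0.08 in nESC, Orc4 at 1.92 ± 0.22 and 1.71 ± 0.12, and Dbf4, the activator of the Cdc7 kinase, at 1.56 ± 0.14 and 1.69 ± 0.12.

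Of 16 genes of 2-cell-like cells, 1 passed the filter in EpiLC, and it was not called (0.75). In nESC 3 passed. Zscan4f averaged 4.49 FPKM in nESC chromatin against 0.175 FPKM in nESC cytoplasm, and Usp17lb 2.04 FPKM against 0.237 FPKM. These passed through their high chromatin and total values, so the filter largely fixed their direction and no count or test is read from them. Zscan4c averaged 1.57 FPKM in EpiLC chromatin and 9.58 FPKM in nESC chromatin. These genes have near-identical copies, so their values are uncertain.

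The direction of several values rests on how the libraries are put on one scale. The FPKM sums ran from 432706 to 504959 in chromatin, from 749514 to 823865 in nucleoplasm, from 811018 to 982175 in total RNA and from 1555123 to 1980223 in cytoplasm. Scaling every library to one sum moved the median of all genes in chromatin over cytoplasm to 1.69 in EpiLC and 1.85 in nESC. Relative to that moved median, and also with one sum, Tinf2 was at -1.36 in EpiLC and -0.79 in nESC, Acd at -0.99 and -0.76, and Rif1 at 3.96 and 5.09. As deposited, the share of calls that were higher ran from 41.9% to 51.7% over the 8 comparisons of fractions. With one sum it was 92.7% in EpiLC and 91.8% in nESC for chromatin over cytoplasm, 95.9% and 97.9% for nucleoplasm over cytoplasm, 90.6% and 84.1% for chromatin over nucleoplasm, and 0.935% and 4.28% for cytoplasm over total RNA. Rif1 was at the top of the 7 genes in chromatin over cytoplasm and nucleoplasm over cytoplasm in both states under all 4 treatments of the libraries drawn.

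**Figure D4:**
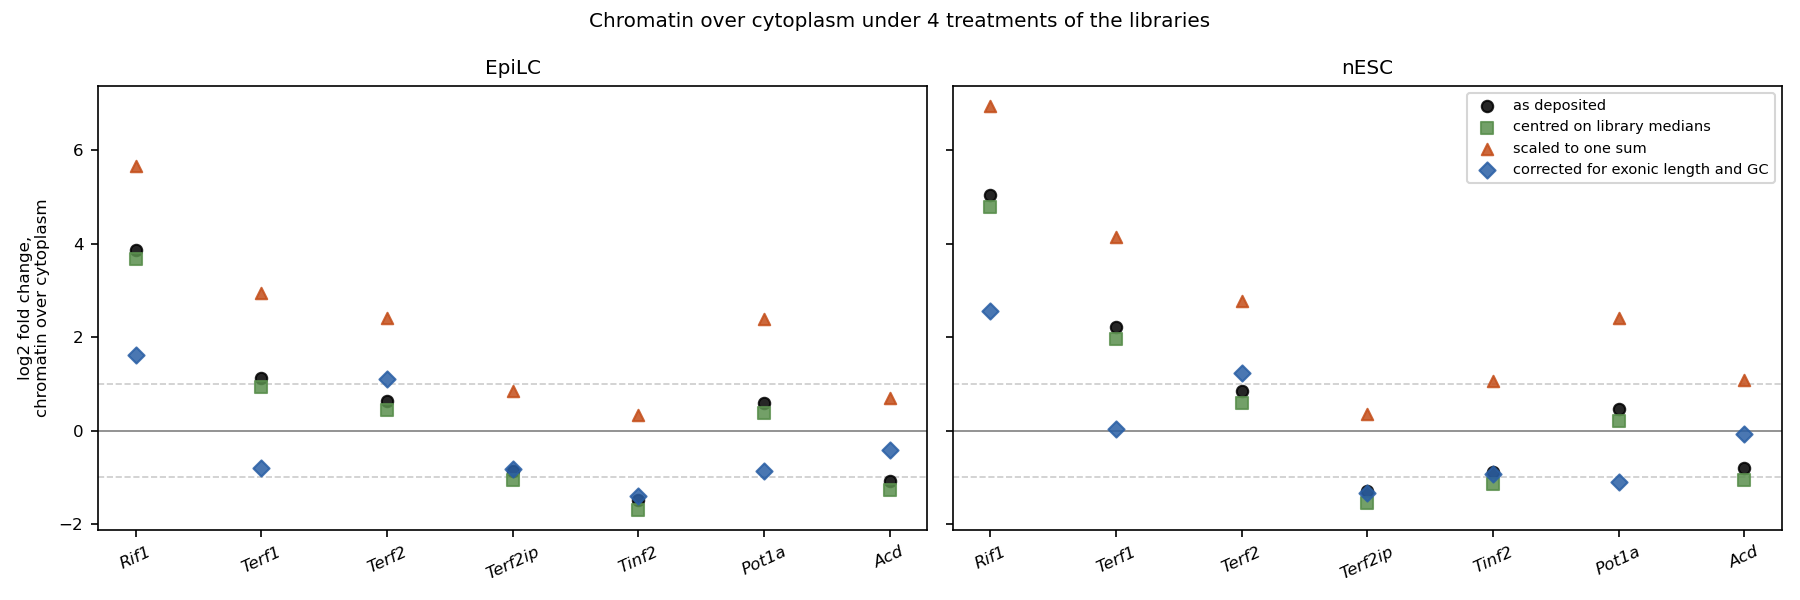
Log2 fold change of chromatin over cytoplasm (y axis) for the 7 genes in EpiLC (left) and nESC (right), as deposited, with libraries centred on their medians, scaled to one sum, or corrected for exonic length and GC content; dashed lines mark 2-fold. Rif1 is highest under all 4, at 1.61 to 5.65 in EpiLC and 2.56 to 6.94 in nESC, and Tinf2 lies above 0 with one sum and below 0 otherwise.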

How the data were processed

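Chromatin, nucleoplasm, cytoplasm and total RNA of EpiLC and nESC was sequenced as ribosome-depleted, strand-specific libraries, per the labels' protocols. The authors deposited FPKM per gene. The submitters' processing notes name TopHat2, Cuffnorm and the mouse build mm10 (GRCm38). Not given in the sources used here are the tools' versions, the annotation, how libraries were normalized and whether counting used strand. EpiLC and nESC have a table of 12 libraries each, normalized apart, so levels were tested within a table only. Of 29759 genes, 29586 Ensembl IDs had a symbol.

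FPKM give no counts. Depth was estimated from the spacing of low values of 1276 genes of 3000 to 10000 bp of exonic length, of which 89.2% to 95.7% per library were, to within 10%, whole multiples of 1 fragment. Fragment numbers are therefore approximate and cover counting error only.

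Fractions were compared by two-sided moderated tests of limma 3.58.1 (R 4.3.3; eBayes with a trend) on log2(FPKM + 0.5), over genes that averaged 1 FPKM or more, with adjustment over all genes tested. Differences between the states were interactions over genes passing in both tables, with each library centred on its median. The fit was tested on simulated data. The named genes are the 7 members, the genes of each list with the largest called folds (up to 3 a direction and state), and the genes of nearest profile. Members and lists were chosen with earlier results of these data known, and the interaction for chromatin over nucleoplasm was added after seeing the data.

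Replicate numbers were not used to pair the libraries, since no comparison of fractions had every same-numbered correlation of deviations over 0.1. With 3 libraries a group this cannot exclude pairing, and the labels do not say whether equal numbers share a culture. Alternatives were a pseudocount of 0.1 or of 1, a filter at 5 FPKM or none, no trend, only the groups compared, a replicate block, each library left out, both EpiLC libraries numbered 3 of chromatin and cytoplasm left out, median centring (or none, for interactions), one sum per library, and a correction for exonic length and GC content by a spline of 5 degrees of freedom. Lengths, coordinates and transcripts come from GENCODE M21 and promoters from RefSeq (GRCm38.p6). Terc, Shld3 and Zscan4a were listed but not analysed here.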

Additional observations from a re-analysis of the deposited data

Results flagged for a closer look

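The difference between chromatin and cytoplasm differed between the states in Rif1, with a value of -1.08 on the log2 scale (EpiLC minus nESC). The difference between chromatin and nucleoplasm differed between the states in Rif1, at -1.04, and in Terf1, at -1.44. Each rests on the limma interaction test given above. Both Rif1 values lost their call in some fits that left out 1 library, where they fell short of 2-fold, and the Terf1 value did not. Both Rif1 calls also ended with the length and GC correction and without both EpiLC libraries numbered 3. The Rif1 call for chromatin over nucleoplasm ended as well with a mean of at least 5 FPKM and with one sum. That interaction was added after the values were seen. With 3 libraries a group, single libraries were not tested as outliers.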

How the results depend on the processing

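Of 1400 values of a single gene under an alternative, 1309 kept their side of the threshold and, where called, their direction, 34 lost a call, 44 gained one and 13 turned sign with a call before or after; the cause was not tested. With libraries scaled to one sum, chromatin over cytoplasm turned for Tinf2 (0.33) and Acd (0.69) in EpiLC and for Tinf2 (1.06), Acd (1.09) and Terf2ip (0.35) in nESC, and nucleoplasm over cytoplasm in nESC turned for Terf2 (1.20), Tinf2 (0.20) and Pot1a (1.09). Corrected for exonic length and GC content, Terf1 turned in EpiLC in chromatin over cytoplasm (-0.80), nucleoplasm over cytoplasm (-0.36) and cytoplasm over total RNA (0.29), and in nESC Terf1 in cytoplasm over total RNA (0.093) and Pot1a in chromatin over cytoplasm (-1.10).

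Members called moved as follows. With one sum, 6 were called in chromatin over cytoplasm and 5 in nucleoplasm over cytoplasm in nESC, and 3 in EpiLC and 5 in nESC in chromatin over nucleoplasm. Of 12592 genes in nESC, one sum called 9167 in chromatin over cytoplasm, 6288 in nucleoplasm over cytoplasm and 5783 in chromatin over nucleoplasm. In EpiLC it called 5321 of 12834 genes in chromatin over nucleoplasm. As deposited these counts were, in that order, 7745, 5028, 4374 and 4199. With median centring, 4 were called in EpiLC cytoplasm over total RNA and 5 in nESC chromatin over cytoplasm. Over all genes, median centring called 4193 of 12834 and 7805 of 12592 there. With the length and GC correction, 1 was called in nESC chromatin over nucleoplasm and 1 in cytoplasm over total RNA in each state. Over all genes, that correction called 3854 of 12562 in nESC chromatin over nucleoplasm, beside 4374 of 12592 as deposited. Counts of all genes in cytoplasm over total RNA also fell with it, as given below. Without both EpiLC libraries numbered 3, 1 was called in EpiLC chromatin over nucleoplasm and 4 in EpiLC cytoplasm over total RNA. Counts of all genes without both libraries are not given here, so these member counts are not read as a trait of the members. In the interaction of chromatin over cytoplasm, 2 were called with a pseudocount of 0.1, no filter, no centring or one sum, and 0 with the length and GC correction or without both libraries numbered 3. In that of chromatin over nucleoplasm, 1 was called with a mean of at least 5 FPKM, the length and GC correction, one sum, or without both libraries numbered 3. Of 11704 genes, no centring called 1188 and one sum 1273 in the first interaction, beside 1130 as reported. One sum called 1001 in the second, beside 949 as reported. Counts of all genes are not given here for either interaction with the length and GC correction or without both libraries numbered 3. They are also not given for the first with a pseudocount of 0.1. Member counts under these settings are thus not read as a trait of the members.

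Leaving out 1 library gave 2 to 4 members called in EpiLC chromatin over cytoplasm, 0 to 1 in EpiLC chromatin over nucleoplasm, 2 to 4 in EpiLC cytoplasm over total RNA, 0 to 2 in the interaction of chromatin over cytoplasm and 1 to 2 in that of chromatin over nucleoplasm. In that order, the EpiLC fits called 7240 to 7581, 4054 to 4554 and 3584 to 4412 of 12834 genes. The interaction fits called 1055 to 1367 and 842 to 1228 of 11704 genes.

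Counts of all genes moved over 1.5 times with the length and GC correction, to 3285 in EpiLC (from 5035) and 3335 in nESC (from 5028) in nucleoplasm over cytoplasm, and to 2118 in EpiLC (from 3890) and 2471 in nESC (from 4453) in cytoplasm over total RNA. The interaction counts were 2138 with no filter and 666 with a mean of at least 5 FPKM for chromatin over cytoplasm (1130 as reported), 555, 176 and, with one sum, 474 for nucleoplasm over cytoplasm (298), and 1844 and 518 for chromatin over nucleoplasm (949). Median centring moved the share of higher calls from 51.2% to 40.2% in EpiLC and from 51.3% to 38.0% in nESC in nucleoplasm over cytoplasm, and from 45.2% to 56.9% in nESC cytoplasm over total RNA.

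With the replicate block, the fits called 7386 genes in EpiLC and 7748 in nESC in chromatin over cytoplasm and 1124 in its interaction, and the block changed no count of members called. Terf2ip in nESC chromatin, at about 101 fragments in its thinnest library, is the value depth limits most.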
